A study of Mus musculus with 18 samples.

Results

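Fos, Fosb, Jun, Junb, Jund, Egr1, Atf3, Dusp1, Ier2 and Zfp36 are immediate early genes, whose transcripts are known to rise within minutes of a stimulus and which are also raised by the handling that tissue undergoes before cell sorting. These 10 genes were taken by symbol from the 53465 rows of the deposited count table, and each symbol was on 1 row. They were measured in all 18 libraries of the series, which came from 9 C57BL/6J mice. The mice were adult females with a contusion of the thoracic spinal cord. At 48 h after injury, 3 mice received PBS, 3 received recombinant IL-13 (rIL-13) and 3 received recombinant IL-4 (rIL-4) into the cord, and cells were collected 24 h later. Microglia, the resident macrophages of the cord, and macrophages that had entered from the blood were sorted from each mouse. The gate was CD45low CD11b+ F4/80+ for microglia and CD45high CD11b+ F4/80+ for macrophages, after digestion with collagenase and DNase and removal of myelin. Mice 1, 2 and 3 received PBS, mice 5, 6 and 7 rIL-13 and mice 8, 9 and 10 rIL-4, so that a group has 3 libraries from 3 mice. No uninjured, undigested or unsorted sample was analysed here.

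The 10 genes play different parts in the early response. Fos, Fosb, Jun, Junb and Jund encode leucine zipper proteins that pair to form the AP-1 transcription factor, and Atf3 encodes a related protein that often represses inflammatory genes. Egr1 encodes a zinc finger factor whose transcription follows ERK signalling. Dusp1 encodes a phosphatase that switches off p38 and JNK kinases, and Zfp36 encodes tristetraprolin, which marks cytokine mRNAs for decay, so that both act as brakes on the response. Ier2 encodes a small nuclear protein. On GRCm38 (GENCODE M21 gene models), the annotation places Fos at chr12:85473890-85477273, Fosb at chr7:19302696-19310051, Jun at chr4:95049034-95052222, Junb at chr8:84974484-84978718, Jund at chr8:70698949-70700616, Atf3 at chr1:191170296-191218039, Dusp1 at chr17:26505590-26562128, Ier2 at chr8:84661331-84662852 and Zfp36 at chr7:28376784-28380253. Collagenase digestion at a warm temperature and sorting are known to induce this group in microglia and in other cells of the brain and cord.

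Sequence near the starts of these genes was searched for elements known to act in early responses. RefSeq promoters of GRCm38.p6 were matched by symbol for 8 of the 10 genes, and the 250 bases before each start were searched on both strands for the CArG box, which serum response factor binds, the cAMP response element TGACGTCA, the AP-1 site TGACTCA or TGAGTCA, and TATAAA. The half-site TGACGT, which lies within the cAMP response element, was added after the sequences had been seen. For the 4 genes with at least 1 of these matches, the stretch that holds them is printed below 5′ to 3′ on the gene's strand, with the matches in capitals. The stretch of Dusp1 leaves out 47 bases that lie in exons of the gene in the GENCODE annotation. The stretches of Atf3 and Zfp36 are limited to 30 bases, since their matches reach into exons of the gene there. For Atf3, 7 of the 250 bases of the window are exonic, and its match reaches into them. For Zfp36, all 250 are, so that its match is exonic. The windows of Dusp1, Atf3 and Zfp36 all lie downstream of the GENCODE start of the gene.
Fos, chr12:85473640-85473889, plus strand: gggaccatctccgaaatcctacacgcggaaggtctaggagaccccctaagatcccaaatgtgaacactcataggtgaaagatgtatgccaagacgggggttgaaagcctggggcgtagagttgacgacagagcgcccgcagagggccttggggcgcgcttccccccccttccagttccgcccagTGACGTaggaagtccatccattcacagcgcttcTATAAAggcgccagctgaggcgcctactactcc
Dusp1, chr17:26508520-26508722, minus strand: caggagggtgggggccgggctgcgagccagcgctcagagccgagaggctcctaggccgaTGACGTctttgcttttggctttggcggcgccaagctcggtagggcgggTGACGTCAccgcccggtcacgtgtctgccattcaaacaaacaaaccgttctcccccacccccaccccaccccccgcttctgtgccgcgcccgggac
Atf3, chr1:191183334-191183363, minus strand: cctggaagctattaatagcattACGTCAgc
Zfp36, chr7:28379267-28379296, minus strand: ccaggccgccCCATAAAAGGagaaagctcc

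Fos held the half-site from base -66 to -61 and TATAAA from -33 to -28. Dusp1 held the full cAMP response element from -143 to -136 and a further half-site from -191. Atf3 held the half-site on the other strand from -8 to -3, and Zfp36 held the CArG box from -58 to -49. The half-site was in 3 of the 8 promoters, counting the Atf3 match that reaches into an exon, and in 6.47% of all 32851. The CArG box was in 1 of the 8, the exonic match of Zfp36, and in 1.47% of all, and the cAMP response element was in 1 of the 8 and in 1.55%. TATAAA was in 1 of the 8 and in 12.4% of all, and the AP-1 site was in 0 of the 8 and in 4.46%. A match is a description of these letters and no measure of binding, and elements outside the window were not searched.

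The libraries held between 35961305 and 45849829 counts. Several differed in the mitochondrial share or in markers of other cell types, and the part of these in the genes below was not tested. Mitochondrially encoded protein genes took 6.35% to 12.2% of counts in rIL-4 microglia, against 2.18% to 3.53% in the other microglia and 0.532% to 1.41% in macrophages. Of the 10 fibroblast and pericyte markers, 9 or 10 had a count in each microglia library, where their summed level was between 232 and 8176 normalized CPM (counts per 1000000 of the TMM-scaled library), with the highest value in rIL-13 mouse 6, and it was at most 9.87 CPM in macrophages. Endothelial markers summed to between 990.2 and 3163 CPM in microglia and to at most 430.1 CPM in macrophages. The 10 neutrophil markers, among them S100a8 and S100a9, summed to 3435 CPM in the macrophages of rIL-13 mouse 6, against 298 to 1826 CPM in the other macrophages and 91.3 to 317 CPM in microglia. Over the 9 mice, all 10 microglia markers were higher in microglia and all 10 monocyte and macrophage markers were higher in macrophages. The summed microglia markers nevertheless overlapped between rIL-4 microglia, at 2713 to 4619 CPM, and PBS macrophages, at 2943 to 4340 CPM. The sorted cells thus held the defining markers of their label, together with those of other cell types. In such bulk libraries, fewer cells of a type and less RNA per cell cannot be told apart.

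All 10 genes were detected in every library, although the depth behind them differed. Fos had between 3098 and 53134 counts per library and Jund between 32 and 143. Together the 10 genes took 0.0592% to 0.144% of counts in microglia and 0.198% to 0.463% in macrophages. Per kilobase of merged exon, the median level in macrophages was highest for Fos at 468 CPM, followed by Dusp1 at 251, Junb at 194, Atf3 at 134, Jun at 127, Zfp36 at 122, Ier2 at 95.8, Egr1 at 40.6, Fosb at 4.98 and Jund at 1.78. The ranges of neighbours in this order overlapped, except between Ier2 and Egr1 and between Egr1 and Fosb. In microglia, the medians per kilobase were 58.2 CPM for Junb, 55.4 for Fos, 44.0 for Jun, 38.4 for Atf3, 35.5 for Dusp1, 34.1 for Ier2, 23.4 for Zfp36, 10.1 for Egr1, 1.00 for Fosb and 0.983 for Jund. There, only Egr1 and Fosb had ranges that did not overlap among neighbours. Fosb and Jund had the lowest medians in both cell types. The Jund gene model used for its length starts downstream of the RefSeq start, which may affect its level per kilobase. Lengths came from an annotation in which Dusp1 has a later version than in the count table. Jund shares 877 exon bases with the antisense gene Gm11175, Jun 232 with Junos, Junb 173 with Prdx2 and Zfp36 125 with Gm44710, and the library kit does not mark strand.

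**Figure D1:**
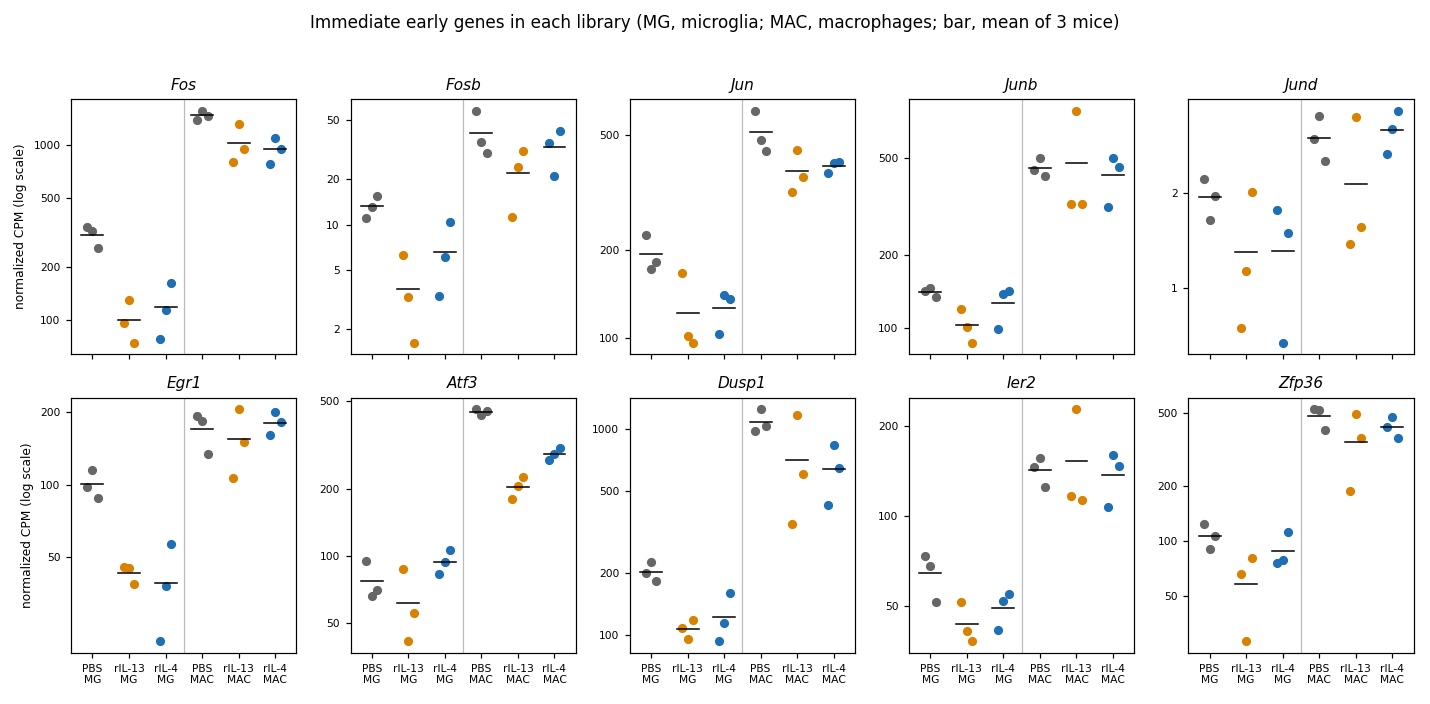
Level of each of the 10 genes in each library, as normalized CPM on a log axis, by treatment and cell type (MG, microglia; MAC, macrophages), with a bar at the mean of 3 mice. Fos lies between 73.7 and 341 CPM in microglia and between 781 and 1579 CPM in macrophages, and Jund stays under 4 CPM throughout.

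The first comparison was between the cell types. Over the 9 mice, 10 of 10 were lower in microglia by edgeR's quasi-likelihood test at an adjusted p of 0.05, where 22.2% of the 16535 genes tested were lower. Every microglia library lay below every macrophage library for 7 of the 10, against 5.72% of all genes, and the exceptions were Fosb, Jund and Egr1. The median log2 difference of the 10, microglia minus macrophages, was -1.93, against 0.03 over all genes.

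Among the AP-1 genes, Fos differed most. In microglia, Fos was at 341, 324 and 258 CPM in PBS mice 1, 2 and 3, at 95.5, 130 and 73.7 CPM in rIL-13 mice 5, 6 and 7, and at 77.4, 114 and 162 CPM in rIL-4 mice 8, 9 and 10. In macrophages of the same mice, it was at 1403, 1579 and 1477 CPM, at 804, 1316 and 956 CPM, and at 781, 1101 and 955 CPM. The lowest macrophage library thus had more than the highest microglia library. Fos was 7.35-fold lower in microglia over the 9 mice (log2 difference -2.88, SE 0.16, adjusted p = 3.81e-10 by edgeR). Fosb was 4.52-fold lower (adjusted p = 1.03e-05), Jun 2.94-fold (adjusted p = 2.36e-08) and Junb 3.71-fold (adjusted p = 8.95e-08). Jund, at 0.67 to 2.23 CPM in microglia and 1.38 to 3.66 CPM in macrophages, was 1.83-fold lower (log2 difference -0.87, SE 0.33, adjusted p = 0.0397 by edgeR). The Jund call was not kept when mouse entered the model as a block (adjusted p = 0.0902), with DESeq2's size factors (adjusted p = 0.05) or with any gene with a count kept (adjusted p = 0.0965), nor in 12 of the 18 fits that left out 1 library (adjusted p = 0.0506 to 0.112 by edgeR). It was kept without the microglia of mouse 7, 8 or 10 or the macrophages of mouse 5, 7 or 8.

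Atf3 and the 2 brakes of the response showed the same order. Atf3 was at 41.2 to 106 CPM in microglia and at 180 to 458 CPM in macrophages, and was 3.90-fold lower in microglia (log2 difference -1.96, SE 0.13, adjusted p = 2.41e-09 by edgeR). Dusp1 was at 93.1 to 227 CPM in microglia and at 347 to 1246 CPM in macrophages, a 5.67-fold difference (adjusted p = 2.96e-08). Zfp36 was at 28.3 to 125 CPM and at 188 to 528 CPM, a 5.05-fold difference (adjusted p = 8.04e-08). None of these 3 had overlapping cell types. Egr1 was 3.04-fold lower in microglia (adjusted p = 4.49e-07), with 115 CPM in the microglia of PBS mouse 2 and 107 CPM in the macrophages of rIL-13 mouse 5. Ier2 was 2.78-fold lower (adjusted p = 3.14e-07).

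Within single treatments, 9 of 10 genes were lower in microglia each time, and Jund did not pass the test. The share of all genes that were lower was 16.3% after PBS, 9.46% after rIL-13 and 9.97% after rIL-4. After PBS, the largest difference was that of Atf3, at 65.8 to 94.4 CPM in microglia and 433 to 458 CPM in macrophages (5.95-fold, adjusted p = 9.66e-06 by edgeR), followed by Dusp1 (5.46-fold) and Fos (4.94-fold). Egr1 had the smallest difference that passed (1.74-fold, adjusted p = 0.00525). After rIL-13, Fos was 10.1-fold lower in microglia, and after rIL-4 it was 7.87-fold lower. Egr1 was 3.52-fold lower after rIL-13 and 4.54-fold lower after rIL-4, and Atf3 was 3.31-fold and 3.01-fold lower. The remaining values were 3.19, 5.91 and 4.91-fold for Fosb after PBS, rIL-13 and rIL-4, 2.70, 3.05 and 3.05-fold for Jun, 3.32, 4.59 and 3.30-fold for Junb, 2.26, 3.43 and 2.74-fold for Ier2, and 4.64, 5.92 and 4.67-fold for Zfp36. The Fosb call after rIL-13 was lost without the macrophages of mouse 6 or 7 (adjusted p = 0.0524 and 0.073 by edgeR), and that after rIL-4 without those of mouse 10 (adjusted p = 0.0549). Dusp1 was 6.49-fold lower after rIL-13 and 5.09-fold lower after rIL-4. Jund was 1.58, 1.62 and 2.38-fold lower, with adjusted p = 0.233, 0.526 and 0.242 by edgeR.

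Since both cell types came from the same cord, the ratio could also be taken within a mouse. For 9 of the 10 genes, macrophages had more than microglia in 9 of 9 mice, and for Jund in 8 of 9, the exception being rIL-13 mouse 7 with a ratio of 0.771. A gene was lower in the microglia of all 9 mice for 13.6% of the genes tested. The ratio of Fos was 4.11, 4.87 and 5.73 in the PBS mice, 8.42, 10.1 and 12.98 in the rIL-13 mice and 10.1, 9.64 and 5.88 in the rIL-4 mice. All 6 cytokine mice were above the 3 PBS mice for Fos. The ratio of Egr1 was 1.98, 1.60 and 1.52 with PBS, 2.35, 4.55 and 3.86 with rIL-13 and 7.17, 5.24 and 3.20 with rIL-4, also without overlap between PBS and either cytokine. Fos and Egr1 were the 2 of 10 genes whose ratio set the 3 PBS mice apart from the 6 cytokine mice, in either direction, as it did for 4.65% of the genes tested, and the other 8 overlapped. The ratio of Atf3 was at 4.85, 6.57 and 6.36 with PBS, 2.07, 5.01 and 4.13 with rIL-13, and 3.26, 3.06 and 2.90 with rIL-4, so that PBS lay above rIL-4 and overlapped rIL-13. Dusp1 and Zfp36 had their highest ratios, 12.3 and 17.6, in rIL-13 mouse 6, and their lowest, 3.19 and 2.85, in rIL-13 mouse 5.

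**Figure D2:**
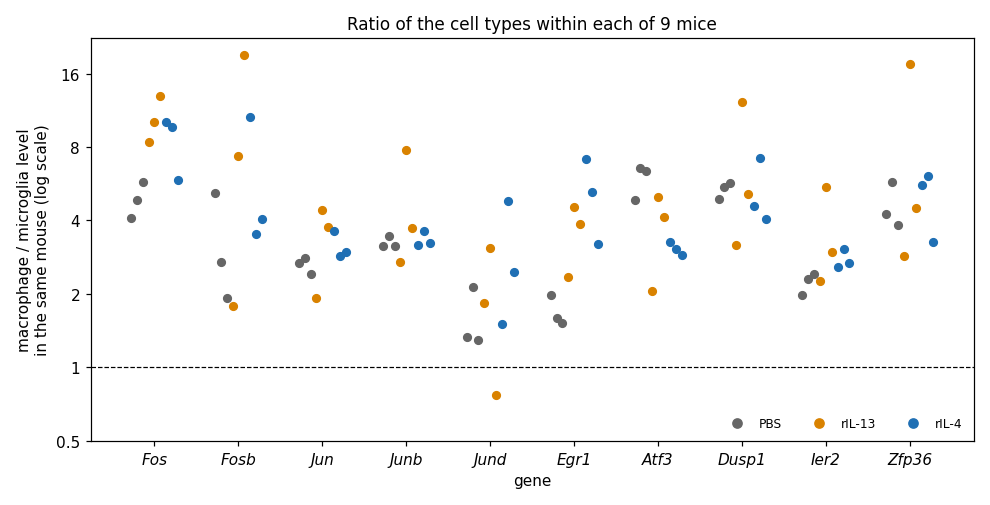
Level in macrophages divided by the level in microglia of the same mouse, for each gene (log axis; each point is 1 of 9 mice, coloured by treatment; the dashed line marks a ratio of 1). One point, Jund in rIL-13 mouse 7, lies below 1, and Fos lies between 4.11 and 12.98.

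Genes of the same pathways went both ways between the cell types. Of 42 other early response genes, 40 passed the filter on low counts over the 9 mice, and of these 24 were lower in microglia, 1 was higher and 15 did not pass the test. Those lower included Pim1, a survival kinase (log2 difference -2.97), Nr4a1, an orphan nuclear receptor (-2.72), and Gadd45b, a stress response gene (-1.61). The 1 that was higher was Cyr61, a matrix protein of fibroblasts and vessels (8.88), in libraries that also held the fibroblast and pericyte markers given above. Of 20 partners of AP-1 and related leucine zipper genes, 9 were lower in microglia, among them Fosl2 and Jdp2, and 1, Cebpd, was higher. Fosl2 is also in the list of early response genes. Of 9 other MAPK phosphatases, 5 were lower, among them Dusp4 (-4.95), Dusp5 (-2.27) and Dusp6, a feedback target of ERK (-0.82), and 2 were higher, Dusp16 and Dusp8. Of the relatives of Zfp36, Zfp36l1 (-1.21) and Zfp36l2 (-1.04) were lower. Of 27 rows of upstream kinases and promoter factors, with Map2k7 on 2 of them, 11 were lower, among them Atf1, and 3 were higher, among them Rps6ka3.

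Heat shock chaperones, which are also raised by tissue handling, showed no such order. Of 14, 3 were higher in microglia, among them Hspb1 (5.10), 3 were lower, among them Hsph1 (-0.68), and 8 did not pass the test, with a median log2 difference of 0.03. Their summed level was between 4295 and 6125 CPM in microglia and between 4577 and 6586 CPM in macrophages, so that the cell types overlapped. The summed level of the 10 immediate early genes did not overlap, at 588 to 1312 CPM in microglia and 2398 to 5143 CPM in macrophages. The neutrophil markers given above were also higher in macrophages, 8 of 10 by edgeR's test, and the fibroblast, pericyte and endothelial markers were higher in microglia. Their part in the difference in immediate early genes, or in single chaperones such as Hspb1, was not tested.

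**Figure D3:**
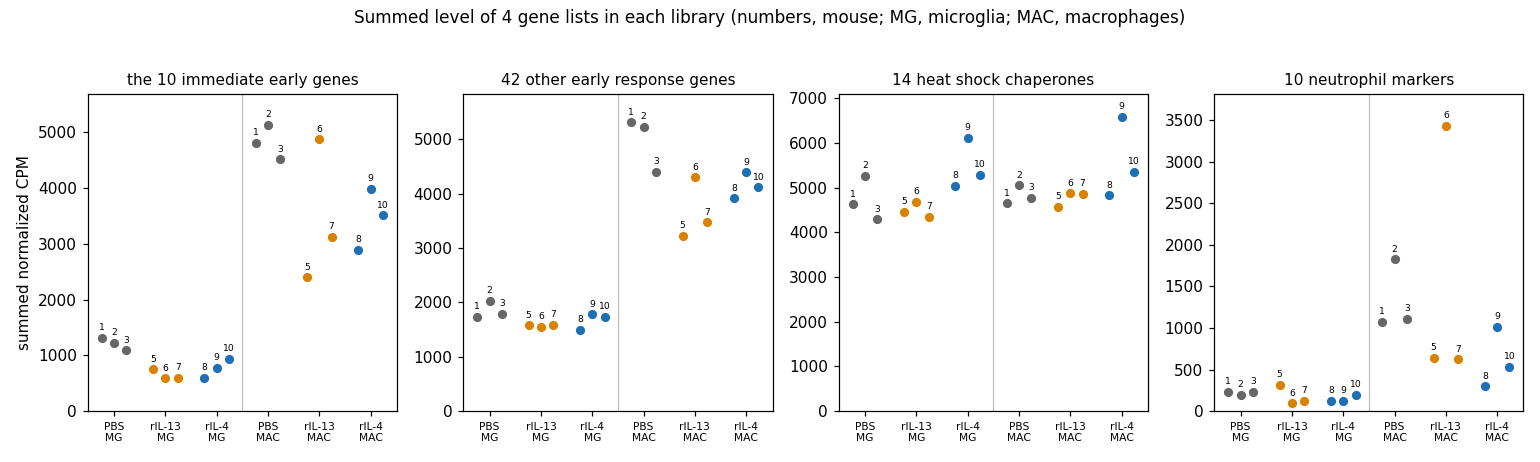
Summed normalized CPM of 4 gene lists in each library (linear axis from 0; each point is 1 library with its mouse number; MG, microglia; MAC, macrophages). The 10 immediate early genes separate the cell types, the 14 chaperones do not, and rIL-13 mouse 6 has the highest neutrophil markers, 3435 CPM, among the macrophages.

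The next comparisons asked how each cytokine changed these genes against PBS within a cell type. Both comparisons of a cell type share its PBS libraries. In microglia, Fos fell after rIL-4, and no other member passed the threshold with either cytokine by edgeR, while DESeq2 called 3 members lower with each cytokine, against 5.34% of the genes it tested with rIL-4 and 1.18% with rIL-13. With rIL-4, 1 of 10 passed the threshold, against 0.887% of the 15566 genes tested that were lower, and 4 had an unadjusted p under 0.05, against 16.4% of all genes. Of the 10, 9 had a negative log2 fold change, against 54% of all genes, with a median of -0.57, and 5 had groups that did not overlap, against 15.7%. With rIL-13, 0 of 10 passed the threshold by edgeR, where 0.0835% of all genes were lower, while 8 had an unadjusted p under 0.05, against 7.76% of all genes. All 10 had a negative log2 fold change, against 50.1% of all genes, with a median of -0.77, and 8 had groups that did not overlap, against 9.17%.

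Fos had the lowest adjusted p of the 10 with either cytokine. The values above show that each of the 3 PBS microglia libraries had more Fos than each of the 6 cytokine libraries. After rIL-4, Fos fell 2.57-fold (log2 fold change -1.36, SE 0.29, adjusted p = 0.0459 by edgeR). After rIL-13, it was 3.07-fold lower (log2 fold change -1.62, SE 0.29, adjusted p = 0.0686 by edgeR). DESeq2 called Fos, Egr1 and Dusp1 lower after each cytokine, with adjusted p for Fos after rIL-13 of 3.22e-05. Under other settings of edgeR, Fos after rIL-13 passed with any gene with a count kept (adjusted p = 0.0288), with at least 10 counts in every library (0.0211) and in a single model of all 18 libraries (0.00438). Egr1 after rIL-4 passed under the same settings (adjusted p = 0.04, 0.0251 and 0.00879 by edgeR), and Egr1 after rIL-13 in the single model (0.049). The rIL-4 call on Fos was lost with DESeq2's size factors (adjusted p = 0.0501 by edgeR) and without 5 of the 6 libraries in turn, namely PBS mouse 1, 2 or 3 and rIL-4 mouse 8 or 9, where the adjusted p was 0.0893 to 0.177 and the log2 fold change stayed between -1.13 and -1.47.

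Fosb, a close relative of Fos, was far less abundant. It was at 11.1, 13.1 and 15.5 CPM with PBS, at 6.25, 3.27 and 1.63 CPM with rIL-13 and at 3.32, 6.05 and 10.3 CPM with rIL-4. Neither cytokine group overlapped PBS, yet the log2 fold changes of -1.82 (SE 0.59, adjusted p = 0.441 by edgeR) and -0.99 (SE 0.58, adjusted p = 0.466) did not pass. Jun was at 227, 173 and 183 CPM with PBS, at 167, 101 and 95.95 CPM with rIL-13 and at 103, 140 and 136 CPM with rIL-4, and it too was without overlap (log2 fold changes -0.67 and -0.60). Junb was at 134 to 146 CPM with PBS and at 86.8 to 119 CPM with rIL-13 (-0.45), and its rIL-4 values of 99.4 to 142 CPM overlapped PBS (-0.13). Jund overlapped in both comparisons (-0.57 and -0.54, SE 0.86 each).

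Egr1, an ERK target, showed the same order. It was at 97.5, 115 and 88.2 CPM with PBS, at 45.4, 45.2 and 38.7 CPM with rIL-13 and at 22.4, 38.1 and 56.9 CPM with rIL-4. All 6 cytokine libraries lay below the 3 PBS libraries. The log2 fold change was -1.21 with rIL-13 (SE 0.29, adjusted p = 0.227 by edgeR) and -1.33 with rIL-4 (SE 0.29, adjusted p = 0.0535). Without rIL-4 mouse 10, whose microglia had the highest level of its group for 8 of the 10 genes, the adjusted p of Egr1 was 0.0254 by edgeR. Dusp1 was at 199, 227 and 182 CPM with PBS, at 109, 95.1 and 118 CPM with rIL-13 and at 93.1, 115 and 160 CPM with rIL-4, also without overlap (-0.91, adjusted p = 0.17, and -0.70, adjusted p = 0.129, by edgeR).

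None of the fold changes of Zfp36, Ier2 and Atf3 passed the test with either cytokine. Zfp36 was at 90.5 to 125 CPM with PBS, at 28.3 to 81.2 CPM with rIL-13 (-0.86) and at 75.8 to 112 CPM with rIL-4 (-0.25). Ier2 was at 51.9 to 73.6 CPM with PBS, at 38.2 to 51.8 CPM with rIL-13 (-0.55) and at 41.6 to 54.9 CPM with rIL-4 (-0.36). Atf3 was the one gene with a positive value after rIL-4, at 82.6 to 106 CPM against 65.8 to 94.4 CPM with PBS (0.32), and was at 41.2 to 87.4 CPM with rIL-13 (-0.32). These 3 ranges of Atf3 overlapped.

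Other composition measures moved in the same microglia libraries. The summed microglia markers were 6553 to 11896 CPM with PBS, 2904 to 7628 CPM with rIL-13 and 2713 to 4619 CPM with rIL-4. Monocyte and macrophage markers summed to 3572 to 4681 CPM, 7450 to 10783 CPM and 17387 to 26838 CPM in the same order. In the cytokine groups, that sum was mostly Chil3, a gene known to respond to IL-4 and IL-13, which was at 50.4 to 251 CPM with PBS, at 4627 to 6820 CPM with rIL-13 and at 11486 to 20636 CPM with rIL-4. Of the 10 markers in the sum, 2 were higher with rIL-4, Chil3 and Ms4a7, and 1, Chil3, with rIL-13, and the median log2 fold changes were 0.43 and 0.15. Fibroblast and pericyte markers summed to 2599 to 3727 CPM with PBS, 1306 to 8176 CPM with rIL-13 and 232 to 1604 CPM with rIL-4. Endothelial markers summed to 990.2 to 2138 CPM, 1825 to 3163 CPM and 2197 to 2867 CPM in the same order. The number of genes with a count was 17620 to 18371 with PBS, 16132 to 16832 with rIL-13 and 15193 to 15626 with rIL-4, without overlap. Their part in the lower immediate early genes was not tested, and neither was that of the mitochondrial share given above. Of the 14 chaperones, 0 passed with either cytokine by edgeR, 3 had a negative log2 fold change with rIL-4 and 10 with rIL-13, and the median over the 14 was 0.32 after rIL-4 and -0.08 after rIL-13 on the log2 scale. The difference between the chaperones and the immediate early genes was not tested. Of 38 other early response genes tested, 1, the cytokine signalling inhibitor Socs3 (-0.89, adjusted p = 0.0282 by edgeR), fell with rIL-4 and 0 passed with rIL-13, with medians of 0.00 and -0.05.

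**Figure D4:**
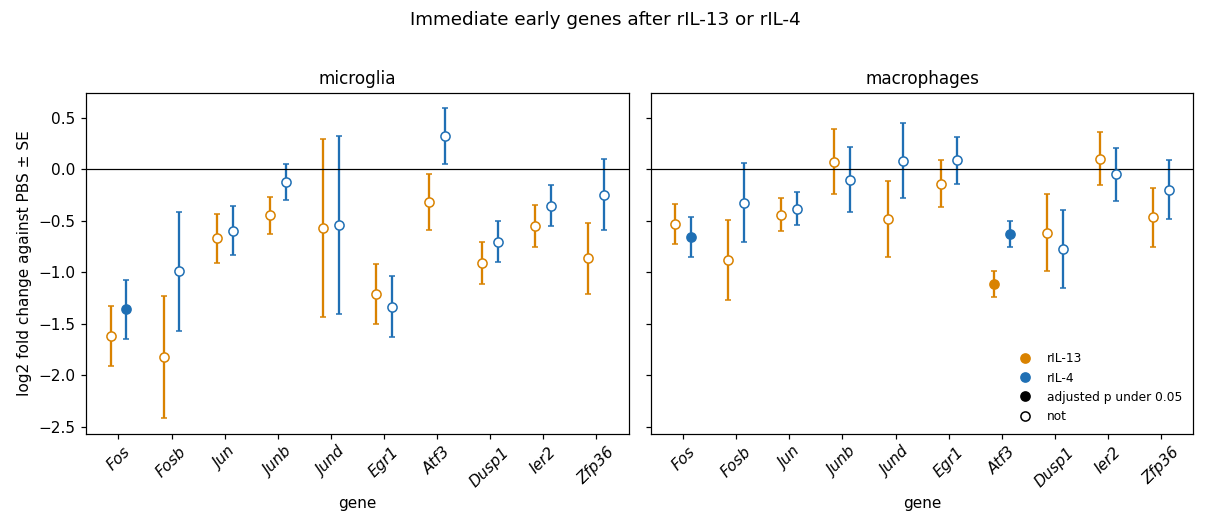
Log2 fold change against PBS (± SE, from edgeR's quasi-likelihood test) of each gene after rIL-13 and rIL-4, in microglia (left) and macrophages (right); filled points have an adjusted p under 0.05. Fos after rIL-4 is filled in both cell types, and Atf3 is filled after both cytokines in macrophages and not in microglia.

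In macrophages, Atf3 was the gene that fell with both cytokines. It was at 458, 433 and 448 CPM with PBS, at 180, 206 and 228 CPM with rIL-13 and at 270, 288 and 307 CPM with rIL-4. The 3 groups did not overlap, and the spread within each was small. Atf3 fell 2.17-fold with rIL-13 (log2 fold change -1.12, SE 0.13, adjusted p = 0.00142 by edgeR) and 1.55-fold with rIL-4 (-0.63, SE 0.13, adjusted p = 0.0087). It was the single member called with rIL-13, where 1.66% of the 13606 genes tested were lower. With rIL-4, 2 of 10 were called, against 7.2% of all genes that were lower, and the other was Fos (-0.65, SE 0.19, adjusted p = 0.0484 by edgeR). Other markers moved in the same macrophage libraries. Of the 10 microglia markers, 10 were lower with rIL-4 (median log2 fold change -3.73) and 3 with rIL-13 (-1.40), and their sum was 2943 to 4340 CPM with PBS, 1206 to 2438 CPM with rIL-13 and 498 to 877 CPM with rIL-4. Of the 10 neutrophil markers, 2 were lower with rIL-4 and 0 passed with rIL-13 by edgeR, and of 13 mitochondrially encoded genes 5 were higher with rIL-4. Endothelial markers summed to 46.05 to 55.08 CPM with PBS, 134 to 219 CPM with rIL-13 and 205 to 430.1 CPM with rIL-4, where 2 of 8 were higher and 4 lower. Astrocyte markers summed to 23.1 to 29.2 CPM, 64.3 to 406 CPM and 66.0 to 511 CPM in the same order, and with rIL-4 1 of 6 tested was higher and 1 lower. Of the 7 fibroblast and pericyte markers tested, 4 were lower with rIL-4, with sums of at most 9.87 CPM in all 3 groups. Monocyte and macrophage markers, Chil3 included, summed to 25048 to 27624 CPM with PBS, 67593 to 91568 CPM with rIL-13 and 100718 to 122060 CPM with rIL-4, while 1 of 10 was higher and 1 lower with each cytokine. Oligodendrocyte markers summed to 180 to 210 CPM, 133 to 147 CPM and 129 to 140 CPM in that order, with 1 of 6 tested lower with each cytokine. Their part in the lower Atf3 and Fos was not tested. In a single model of all 18 libraries, neither rIL-4 call was kept (adjusted p = 0.103 for Atf3 and 0.177 for Fos).

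Fos in macrophages had lower values in all 6 cytokine libraries than in the 3 PBS libraries. With rIL-13, its log2 fold change of -0.53 did not pass (SE 0.19, adjusted p = 0.177 by edgeR). Without rIL-13 mouse 6, the library with the highest neutrophil markers, it was -0.74 with an adjusted p of 0.0464. The rIL-4 call on Fos was lost without any 1 of PBS mouse 1, 2 or 3 or rIL-4 mouse 8 or 10, where the adjusted p was 0.0968 to 0.142 by edgeR, and with DESeq2's size factors (adjusted p = 0.0531). Jun was at 442 to 609 CPM with PBS, at 320 to 446 CPM with rIL-13 (-0.44) and at 372 to 404 CPM with rIL-4 (-0.38). Fosb was at 29.8 to 57.5 CPM with PBS, at 11.2 to 31.1 CPM with rIL-13 (-0.88) and at 21.2 to 41.9 CPM with rIL-4 (-0.32). Of the AP-1 genes and Atf3, Fos, Jun and Atf3 had rIL-4 groups that lay wholly below PBS.

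None of the other macrophage values passed the test. Dusp1 was at 973, 1246 and 1031 CPM with PBS, at 347, 1168 and 602 CPM with rIL-13 and at 428, 830 and 648 CPM with rIL-4. The rIL-4 group did not overlap PBS (-0.77, SE 0.38, adjusted p = 0.213 by edgeR), and the rIL-13 group spanned more than a 3-fold range (-0.61, SE 0.38, adjusted p = 0.448). Zfp36 overlapped in both comparisons (-0.47 with rIL-13 and -0.20 with rIL-4). Egr1 was at 134 to 193 CPM with PBS, at 107 to 206 CPM with rIL-13 (-0.14) and at 160 to 199 CPM with rIL-4 (0.08). Junb (0.07 and -0.10), Ier2 (0.10 and -0.05) and Jund (-0.48 and 0.08) also overlapped PBS after both. With rIL-4, 4 of the 10 had groups that did not overlap, against 17.6% of all genes, and with rIL-13, 2 of 10, against 12.4%. The median log2 fold change of the 10 was -0.26 with rIL-4 and -0.47 with rIL-13, against 0.02 and 0.00 over all genes.

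Among related genes in macrophages, changes went both ways. Of 39 other early response genes tested, 6 rose and 5 fell with rIL-4, and 3 rose and 4 fell with rIL-13. Of all 13606 genes tested, 921 rose and 979 fell with rIL-4, and 344 rose and 226 fell with rIL-13. Hbegf, a growth factor (6.61 with rIL-4 and 4.79 with rIL-13), and Egr2, a relative of Egr1 (1.99 and 1.23), rose with both. Tnfaip3 and Nfkbiz, which are NF-κB targets, fell with both (-0.92 and -2.20 with rIL-4, -1.18 and -2.18 with rIL-13). Of the AP-1 partners, Batf3 and Atf5 rose with both cytokines. Of 8 other MAPK phosphatases, 2 fell with each cytokine, Dusp6 and Dusp16 with rIL-4 and Dusp6 and Dusp2 with rIL-13. The chaperones Hsph1 and Dnaja1 rose with rIL-4 and 0 of 13 passed with rIL-13 by edgeR.

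The 2 cytokines were then compared directly. Between rIL-4 and rIL-13, 0 of 10 genes were called in microglia by edgeR (1 with an unadjusted p under 0.05, 0 by DESeq2), where 0.0385% of all genes were called, and 0 of 10 in macrophages (1 unadjusted, 1 by DESeq2), where 0.25% were called. DESeq2 called 4.76% of all genes it tested in microglia and 2.61% in macrophages. An unadjusted p under 0.05 was found for 11.4% of all genes in microglia and 11.1% in macrophages, and the member was Atf3 in both. In macrophages, all 3 rIL-4 libraries had more Atf3 than all 3 rIL-13 libraries, as 14.4% of all genes were without overlap in either direction (log2 difference 0.48, SE 0.13, adjusted p = 0.165 by edgeR and 0.0435 by DESeq2), and in microglia the difference was 0.64 (SE 0.27, adjusted p = 0.426 by edgeR) with overlap. In microglia, the other log2 differences were 0.26 for Fos, 0.83 for Fosb, 0.07 for Jun, 0.32 for Junb, 0.03 for Jund, -0.13 for Egr1, 0.21 for Dusp1, 0.19 for Ier2 and 0.62 for Zfp36. In macrophages, they were -0.12 for Fos, 0.56 for Fosb, 0.06 for Jun, -0.17 for Junb, 0.56 for Jund, 0.22 for Egr1, -0.16 for Dusp1, -0.15 for Ier2 and 0.27 for Zfp36. A p that misses the threshold does not show that the cytokines act alike on these genes.

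An interaction term over the 18 libraries tested whether the response to a cytokine differed between microglia and macrophages. None of the 10 genes was called for rIL-4 by edgeR (2 with an unadjusted p under 0.05, 2 by DESeq2), where 0.992% of all genes were called, or for rIL-13 (3 unadjusted, 0 by DESeq2), where 0.0242% were called. The unadjusted shares over all genes were 12.4% for rIL-4 and 5.83% for rIL-13, and DESeq2 called 4.66% and 1.1% of the genes it tested. The difference in the log2 fold change, microglia minus macrophages, was largest for Egr1 with rIL-4, at -1.44 (SE 0.39, adjusted p = 0.104 by edgeR and 0.023 by DESeq2). Without the microglia of rIL-4 mouse 10, the edgeR value was -1.81 with an adjusted p of 0.0305. Atf3 had the opposite sign, at 0.92 with rIL-4 (SE 0.30, adjusted p = 0.189 by edgeR and 0.0448 by DESeq2) and 0.79 with rIL-13 (SE 0.30, adjusted p = 0.711). Fos had a difference of -1.09 with rIL-13 (SE 0.36, adjusted p = 0.581) and -0.73 with rIL-4. Egr1 had -1.07 with rIL-13. The remaining differences with rIL-4 and rIL-13 were -0.69 and -0.94 for Fosb, -0.24 and -0.23 for Jun, -0.05 and -0.52 for Junb, -0.65 and -0.09 for Jund, 0.05 and -0.30 for Dusp1, -0.33 and -0.66 for Ier2, and -0.07 and -0.40 for Zfp36. Calls of Atf3 in macrophages and not in microglia are therefore not shown by edgeR to differ between the cell types.

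Single mice were also ranked within their group across the members, and the share over all genes was not taken. Mouse 3 was lowest for 7 of the 10 among PBS macrophages, and mouse 7 for 6 among rIL-13 microglia. In the macrophages of rIL-13 mouse 5, 9 of the 10 genes had the lowest level of the group and 7 the lowest of all 9 macrophage libraries. That library had the fewest counts of the 18, 35961305, and the highest share in its top 10 genes, 33.3%. It also had the fewest genes with a count among macrophages, 16867, and the part of these traits was not tested. In the macrophages of rIL-13 mouse 6, 8 of the 10 had the highest level of the group. Among them were Junb at 785 CPM, against 324 CPM in each of the other 2 mice, and Ier2 at 228 CPM, against 117 and 113 CPM. This library also had the highest neutrophil markers, and their part in these levels was not tested. Its microglia did not stand out in the same way, with the highest level of the group for 1 gene and the lowest for 3. In rIL-4 mouse 8, 9 of the 10 genes were lowest of the group in microglia, where the mitochondrial share was 12.2%, and 8 of the 10 were lowest in macrophages. As a description over 18 libraries that share the cell type difference, the genes whose log2 CPM was most like that of Fos were Dusp1 (Pearson r = 0.969), Trib1 (0.969), Jun (0.968), Chst12 (0.960) and Pgd (0.959), and those most like Dusp1 were Ccrl2 (0.976), Trib1 (0.975), C5ar1 (0.972), Cd14 (0.969) and Fos (0.969).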

How the data were processed

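Sorted cells had been prepared with SMART-seq2, an oligo-dT method without molecular identifiers or strand marking. The submitters' processing notes name STAR 2.5.3a, RSEM 1.3.0 and GRCm38. The values used were the deposited RSEM counts per gene, which the authors gave as whole numbers without normalization. Genes were tested with edgeR 4.0.16 in R 4.3.3 (quasi-likelihood test, TMM scaling, filterByExpr) within a cell type or treatment, or over all 18 libraries for cell type and interaction, with Benjamini-Hochberg adjustment over all genes at 0.05. The SE was the log2 fold change divided by the root of the F statistic. Levels (CPM) were counts per 1000000 of the TMM-scaled library size. Alternatives were DESeq2 1.42.0, its size factors, other filters, a single model, leaving out each library, and mouse as a block. Both cell types came from the same mouse, which pairs them, and their deviations correlated at 0.0485 to 0.205 over 16535 genes in the 9 mice. The code was tested on simulated data. All 10 members were named in every comparison, and of other lists at most 3 genes per direction. The members and lists were chosen with earlier results of these data known.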

Additional observations from a re-analysis of the deposited data

How the results depend on the processing

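With mouse as a replicate block, the call on Jund over the 9 mice was lost (log2 difference -0.90, adjusted p = 0.0902 by edgeR), and the block changed no other call of the 10 genes. The Jund call was also lost with DESeq2's size factors (adjusted p = 0.05) and with any gene with a count kept (adjusted p = 0.0965). The main edgeR fits called 345 genes for rIL-4 against PBS in microglia, 57 for rIL-13 against PBS and 6 for rIL-4 against rIL-13. In macrophages they called 1900, 570 and 34 in the same order. Between the cell types they called 7964 over 9 mice, 3710 after rIL-13 and 3174 after rIL-4. For the rIL-4 and rIL-13 interactions they called 164 and 4. All 18 libraries in a single model gave 949, 172 and 138 in microglia and 1053, 257 and 70 in macrophages, in the same order. DESeq2 called 1478, 414 and 741 genes in microglia, 1111 for rIL-13 against PBS and 399 for rIL-4 against rIL-13 in macrophages, and 775 and 183 for the rIL-4 and rIL-13 interactions. A minimum of 10 counts in every library gave 0 genes for rIL-4 against rIL-13 in microglia, 5167 between the cell types over 9 mice and 2 for the rIL-13 interaction, and keeping any gene with a count gave 209 for rIL-4 against rIL-13 in macrophages.

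Of the 10 genes, rIL-4 against PBS in microglia called 3 lower by DESeq2, where 832 genes (5.34%) were lower. With its size factors 0 were called, where 132 genes were lower. With any gene with a count kept, at least 10 counts in every library and the single model, 2 were called lower each time. The genes lower there were 134, 144 and 467. With rIL-13, 3 were lower by DESeq2, where 184 genes (1.18%) were. Under the same 2 filters 1 was, where 15 and 21 genes were, and in the single model 2, where 56 genes were. In macrophages, rIL-4 against PBS called 1 lower with size factors, where 1005 genes were lower, and 0 in the single model, where 599 were. DESeq2 called 1 between the cytokines there (2.61% of the genes it tested) and 2 in the rIL-4 interaction (4.66%). With any count kept, the rIL-4 interaction turned positive for Junb (0.044) and Zfp36 (0.021). The causes were not tested.

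Leaving out 1 library at a time gave 75 to 269 genes for rIL-4 against PBS in microglia, the lowest without PBS mouse 3, 22 to 51 for rIL-13 against PBS and 0 to 15 between the cytokines. In macrophages it gave 1041 to 1614, 199 to 529 and 1 to 23. Between cell types it gave 2132 to 3969 after rIL-13 and 1684 to 3777 after rIL-4, and for the interactions 52 to 198 with rIL-4 and 0 to 7 with rIL-13. Of the 10 genes, 0 to 2 were called for rIL-4 against PBS in microglia, 1 to 2 for either cytokine in macrophages and 0 to 1 in the rIL-4 interaction.

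Fold changes that passed in no such fit changed sign when 1 library was left out. For rIL-13 against PBS in macrophages, they ran from -0.39 to 0.068 for Egr1, -0.29 to 0.26 for Ier2 and -0.47 to 0.29 for Junb. For rIL-4 against PBS, they ran from -0.058 to 0.18 for Egr1, -0.18 to 0.11 for Ier2, -0.25 to 0.076 for Junb and -0.027 to 0.20 for Jund in macrophages, and from -0.21 to 0.019 for Junb in microglia. Between the cytokines in macrophages, they ran from -0.49 to 0.40 for Dusp1, -0.28 to 0.085 for Fos, -0.32 to 0.25 for Ier2, -0.057 to 0.19 for Jun, -0.40 to 0.37 for Junb and -0.045 to 0.59 for Zfp36. In microglia, they ran from -0.021 to 0.37 for Dusp1, -0.49 to 0.15 for Egr1, -0.033 to 0.49 for Fos, -0.070 to 0.37 for Jun and -0.26 to 0.50 for Jund. The rIL-13 interaction ran from -0.63 to 0.27 for Dusp1, -0.74 to 0.038 for Junb and -0.55 to 0.45 for Jund, and the rIL-4 interaction from -0.19 to 0.29 for Dusp1, -0.14 to 0.10 for Junb and -0.27 to 0.054 for Zfp36. Jund, with 32 to 143 counts per library, had the least depth of the 10. Each group had 3 libraries, and p-values rest on the spread between mice within groups, estimated over all groups of a fit.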
